A study of Mus musculus with 16 samples.

Results

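Fetal testes were compared with fetal ovaries of wild-type mice at embryonic day 14.5 (E14.5), on 2 arrays of each sex out of the 16 arrays of the series. The members were all autosomal genes measured, 11867 of the 12332 named genes tested, so genes of the X and Y chromosomes served only as a check of the labels. The series holds gonads of both sexes at E14.5 and E12.5, wild type or Wnt4 knock-out, in 8 groups of 2 arrays. The groups used here are wild-type testis E14.5 against wild-type ovary E14.5, wild-type testis E12.5 against wild-type ovary E12.5, and, for context, knock-out testis E14.5 against knock-out ovary E14.5. No strain or further allele is given in the sources used here, and animals were staged by morphology. Each array held the RNA of whole gonads, and whether 1 embryo or a pool went into an array is not given. Per the labels the arrays of 1 group are biological replicates. Male samples carry the word ovary in their titles but testis in their source, and they are taken as testis. In whole gonads fewer cells of a type and less RNA per cell cannot be told apart.

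As background, the supporting cells of the bipotential gonad become Sertoli cells in the testis and pre-granulosa cells in the ovary. Sertoli cells enclose the germ cells in cords and secrete Desert hedgehog, and fetal Leydig cells between the cords make androgens from cholesterol. Germ cells follow their surroundings: in the ovary retinoic acid and STRA8 start meiotic prophase, whereas in the testis the enzyme CYP26B1 degrades retinoic acid and the cells pass through a pluripotency-like state before they arrest and remethylate their DNA.

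Values are intensities of probe sets, as deposited and not logged, with a mean of 272 to 288 per array. Differences below are on log2(intensity + 4), testis minus ovary, which understates the difference of genes with low intensity. A gene is called when its adjusted p in limma is below 0.05, two-sided, with Benjamini-Hochberg adjustment over all 12332 genes. With 2 arrays a side the number of arrays limits the precision. The variance of each gene was estimated over all 16 arrays of the 8 groups. A p-value here covers only how far arrays vary within these groups, which may be technical. With only the 4 arrays of the E14.5 comparison fitted, 0 autosomal genes were called.

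The sex-linked genes set the second array of each sex apart from the first. Xist, the X-inactivation RNA of female cells, read 8.78 and 1087 in the testis arrays, against 4501 and 4627 in the ovary arrays. The Y-linked gene Eif2s3y read 867 and 904 in the testis arrays, against 5.05 and 239 in the ovary arrays. Shares of opposite-sex RNA, here and below, are estimates from sex-linked genes alone. The reference was the mean of all arrays of the opposite sex at the same stage, wild type and knock-out together. The baseline was the lowest array of the own sex. The testis reference thus includes arrays with an estimated female share of their own. The share was 22.7% female RNA in testis replicate 2, from Xist. It was 19.5% male RNA in ovary replicate 2, the median over Eif2s3y, Kdm5d and Uty. The same shares were 0.0177% in testis replicate 1 and 0.144% in ovary replicate 1. The number of members called in the gene lists below is therefore also given without both of these second arrays. In that fit each lone array is assumed to vary like the other groups. List counts, with all arrays or with arrays left out, are to be read beside the counts over all genes given next. The 4 marker genes followed the labels in all 4 arrays, as given with their cell types.

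At E14.5, 438 autosomal genes were called, 3.69% of the 11867 tested. Of these, 263 were higher in the testis (2.22%) and 175 were lower (1.47%). The difference exceeded 4-fold in 71 of the higher and 42 of the lower genes, and 8-fold in 20 and 18. The median over all autosomal genes was -0.0158. All 438 called genes had testis arrays that did not overlap the ovary arrays, a pattern shown by 45.6% of all genes tested (21.6% higher, 24.1% lower). The call limit fell within a dense range, with 57 genes at an adjusted p of 0.04 to 0.05 and 65 at 0.05 to 0.06. Without both second arrays 589 genes were called, 327 of them among the 438. Leaving out 1 array gave 158 calls without testis replicate 1, 176 without testis replicate 2, 83 without ovary replicate 1 and 859 without ovary replicate 2. In all, 68 genes were called with any of the 4 arrays left out, 32 higher and 36 lower in the testis.

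**Figure D1:**
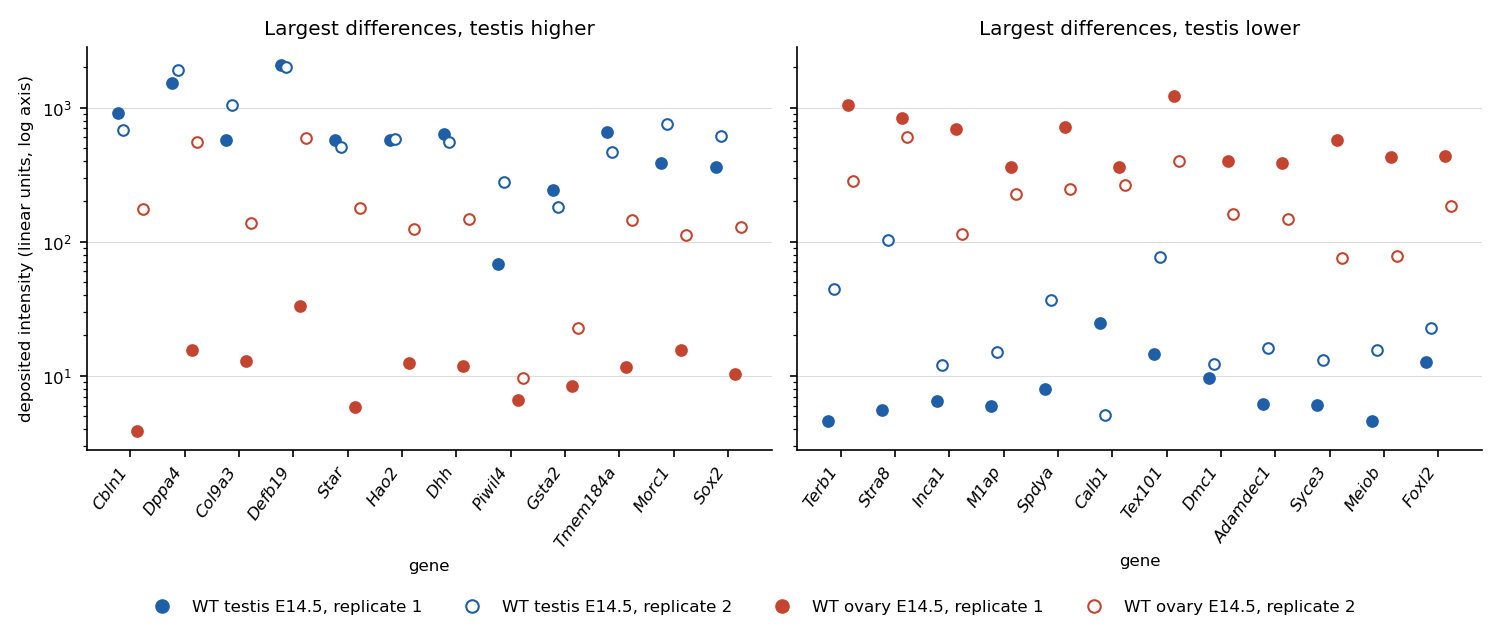
Deposited intensity on a log axis of the 12 largest differences in each direction among called genes, with both testis arrays (blue, left) and both ovary arrays (red, right) of E14.5; filled points are replicate 1 and open points replicate 2. The groups do not overlap for any of these genes, and ovary replicate 2 lies toward the testis arrays, as for Dhh at 148 against 11.8 in ovary replicate 1.

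Genes of Sertoli cells were higher in the testis. Of 26 tested members of the Sertoli list, 14 were higher in the testis, 0 were lower, and the median difference was 2.05. Dhh, the secreted hedgehog ligand of Sertoli cells, read 630 and 552 in the testis arrays, against 11.8 and 148 in the ovary arrays. Both testis arrays lay above both ovary arrays, and the difference was 3.60 (SE 0.755, limma adjusted p = 0.0167). Defb19, a beta-defensin gene, read 2064 and 1993 in the testis, against 32.9 and 592 in the ovary (3.78, SE 0.848, limma adjusted p = 0.0244). Inhbb, the beta-B subunit of activin and inhibin, read 829 and 654 in the testis, against 53.6 and 220 in the ovary. Its difference of 2.71 (SE 0.438, limma adjusted p = 0.00441) was called with any 1 array left out.

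Enzymes, matrix and secreted proteins of Sertoli cells were among the called members. Hsd17b3, which turns androstenedione into testosterone, read 206 and 90.6 in the testis, against 3.14 and 29.0 in the ovary, a difference of 3.20 (SE 0.580, limma adjusted p = 0.00773). Hsd17b1, a related dehydrogenase, differed by 2.18 (SE 0.383, limma adjusted p = 0.00654). Col9a3, a chain of collagen IX, read 573 and 1038 in the testis, against 12.8 and 138 in the ovary (3.99, limma adjusted p = 0.0426). Cbln4, Clu and Vnn1, a secreted cerebellin, a secreted chaperone and a pantetheinase, were higher in the testis by 2.94, 1.27 and 1.73. Sox9, the transcription factor that directs Sertoli differentiation, read 114 and 107 in the testis, against 11.1 and 56.2 in the ovary (1.92, SE 0.484, limma adjusted p = 0.0435). Amh, the hormone that regresses the Müllerian ducts, was low on its probe set, with 20.2 and 39.6 in the testis, against 4.21 and 6.17 in the ovary (1.83, limma adjusted p = 0.00933). Fgf9, a male-promoting growth factor, was not called, with 25.9 and 28.8 in the testis, against 60.05 and 25.1 in the ovary.

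The Sertoli count, like the count over all genes, varied with the arrays and was lowest without ovary replicate 1. Of the list, 17 members were called without both second arrays and 18 without ovary replicate 2, but 1 without ovary replicate 1, 3 without testis replicate 1 and 6 without testis replicate 2. Dhh itself differed by 5.33 without both second arrays and by 1.97 without ovary replicate 1, where the call was lost. Cbln1, a secreted cerebellin and the largest rise of all called genes, read 908 and 677 in the testis, against 3.85 and 174 in the ovary (4.40, SE 0.912, limma adjusted p = 0.0161). Its call was lost without testis replicate 1 or testis replicate 2.

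The receptor and a feedback gene of the hedgehog pathway were higher together with the ligand. Ptch1, the receptor and a target of the pathway, read 4022 and 4095 in the testis, against 1352 and 2047 in the ovary (1.28, SE 0.174, limma adjusted p = 0.00141). Hhip, a membrane protein that binds and restrains hedgehog ligands, read 185 and 133 in the testis, against 7.51 and 30.9 in the ovary (8.02-fold, limma adjusted p = 0.0015). Both kept their call with any 1 of the 4 arrays left out. Gli1, a transcription factor that responds to the pathway, read 236 and 91.8 in the testis, against 46.8 and 73.3 in the ovary, and was not called (1.28, limma adjusted p = 0.25). Of the 14 tested pathway members 3 were higher, 0 were lower, and the median was 0.179. The count was 3 without both second arrays, and 2 without ovary replicate 1, testis replicate 1 or testis replicate 2.

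Genes of fetal Leydig cells and of steroid synthesis were also higher in the testis. Of 13 tested list members 7 were called, all higher, with a median of 1.63. Star, which carries cholesterol into mitochondria, read 568 and 505 in the testis arrays, against 5.83 and 178 in the ovary arrays (3.67, SE 0.877, limma adjusted p = 0.0337). Hsd3b1, the dehydrogenase that makes the ketone of active steroids, read 2821 and 2091 in the testis, against 116 and 873 in the ovary (2.91, SE 0.645, limma adjusted p = 0.0232). Scarb1, the receptor that takes up cholesterol from lipoproteins, read 1174 and 1484 in the testis, against 257 and 532 in the ovary (1.82, SE 0.328, limma adjusted p = 0.00735). Fdx1, the ferredoxin that feeds electrons to mitochondrial P450 enzymes, differed by 1.19 (limma adjusted p = 0.00455).

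The P450 enzymes of the same pathway had larger fitted differences than the called members but were not called. Cyp11a1, which cuts the cholesterol side chain, read 2525 and 1522 in the testis, against 5.50 and 847 in the ovary (4.45, SE 1.37, limma adjusted p = 0.0992). Cyp17a1, the next P450 on the way to androgens, read 3787 and 2851 in the testis, against 6.58 and 1459 in the ovary (4.72, SE 1.56, limma adjusted p = 0.128). For both genes the testis arrays lay above the ovary arrays, and on the log2 scale the ovary arrays lay farther from each other than the second of them from the testis arrays. Without both second arrays 10 of the 13 members were called, and without ovary replicate 1 none was (0). Star differed by 5.86 without both second arrays and by 1.56 without ovary replicate 1 (limma adjusted p = 0.11).

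Fetal adrenal cells share this machinery. Of 7 tested genes of the adrenal cortex list 2 were called, Star and Scarb1, which are also in the Leydig list. The count was 2 without both second arrays and 0 without ovary replicate 1 or testis replicate 2. The summed intensity of the adrenal list was 1953 and 2133 in the testis arrays, against 311 and 803 in the ovary arrays. Cyp11b1, an adrenal P450 enzyme, was at 16.7 and 11.9 in the testis, against 3.64 and 7.46 in the ovary, and was not called. The part of adrenal cells in these results was not tested.

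Enzymes of cholesterol synthesis were higher by smaller amounts. Of 18 tested members 8 were higher in the testis and 0 lower, with a median of 0.827. Dhcr7, which catalyses the last step to cholesterol, read 654 and 541 in the testis, against 120 and 203 in the ovary (1.90, SE 0.378, limma adjusted p = 0.0124). Fdft1, which makes squalene, read 1800 and 1630 in the testis, against 775 and 1021 in the ovary (0.94, SE 0.155, limma adjusted p = 0.00455). Hmgcs1, Sqle, Cyp51, Idi1, Lss and Msmo1, which act at other steps of the pathway, were higher by 0.79 to 1.22. A further, dim probe set of Msmo1 had the opposite sign. The count was 4 without both second arrays, 9 without ovary replicate 2, 1 without testis replicate 2, and 0 without testis replicate 1 or ovary replicate 1.

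The muscle, stromal, matrix and endothelial lists held at most 1 call each, where 3.69% of all autosomal genes tested were called. Acta2, the smooth-muscle actin of peritubular cells, read 3237 and 2785 in the testis, against 1297 and 1636 in the ovary (1.04, limma adjusted p = 0.0271), and was the only call among 8 peritubular genes. It was not called without both second arrays (limma adjusted p = 0.0532). Col4a4, a basement membrane collagen chain, differed by 2.47 (limma adjusted p = 0.00546) and was the only call among 18 basement membrane genes; the list gave 1 call without both second arrays and 0 without ovary replicate 1. None (0) of the 17 genes of interstitial progenitors and stroma was called. Vwf was the only call among 20 endothelial genes, at 94.9 and 115 in the testis, against 19.5 and 26.5 in the ovary (2.02, limma adjusted p = 0.0244), and it was not called without both second arrays (limma adjusted p = 0.116).

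On the ovary side, pre-granulosa genes were lower in the testis. Of 18 tested members 10 were called, all lower, with a median of -1.14. Foxl2, the forkhead factor that maintains granulosa identity, read 12.7 and 22.7 in the testis arrays, against 437 and 184 in the ovary arrays (-3.77, SE 0.422, limma adjusted p = 0.000399). The iroquois factors fell as well. Irx3 read 66.6 and 134 in the testis, against 1618 and 998 in the ovary (-3.69, SE 0.611, limma adjusted p = 0.00465). Irx5 read 4.79 and 5.11 in the testis, against 75.1 and 40.5 in the ovary (-2.73, SE 0.289, limma adjusted p = 0.000292). Runx1, another factor of pre-granulosa cells, read 11.1 and 10.6 in the testis, against 61.8 and 56.1 in the ovary (-2.08, SE 0.176, limma adjusted p = 6.16e-05). One further probe set of Runx1, of low intensity, had the opposite sign.

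Secreted products of the ovarian side were also lower. Fst, follistatin, which binds activins, read 67.3 and 170 in the testis, against 962 and 681 in the ovary (-2.87, SE 0.540, limma adjusted p = 0.00933). Kitl, the ligand of the KIT receptor on germ cells, read 1144 and 1556 in the testis, against 3190 and 2493 in the ovary (-1.08, limma adjusted p = 0.00677). Among 22 activin, inhibin, follistatin and BMP genes, Inhbb and Inha were higher in the testis, Fst was lower, and the median was -0.0240. Without both second arrays 2 of these genes were higher and 1 was lower, and without ovary replicate 1 the counts were 1 and 0. Foxl2, Irx5, Runx1 and Msx1 kept their call with any 1 array left out. The pre-granulosa count was 11 without both second arrays, 10 without ovary replicate 2, 8 without testis replicate 2, 5 without testis replicate 1 and 4 without ovary replicate 1.

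Targets of WNT signalling were called in both directions. Wnt4 itself read 753 and 512 in the testis arrays, against 1138 and 1150 in the ovary arrays, and was not called (-0.88, SE 0.358, limma adjusted p = 0.234). Rspo1, the R-spondin that amplifies WNT signals in the ovary, read 147 and 265 in the testis, against 450 and 310 in the ovary (-0.90, limma adjusted p = 0.131). Of 17 tested feedback targets 2 were lower and 1 was higher in the testis, with a median of -0.322. Over all autosomal genes tested 1.47% were called lower and 2.22% higher. Lgr5, the R-spondin receptor, read 41.3 and 23.9 in the testis, against 140 and 89.8 in the ovary (-1.71, SE 0.282, limma adjusted p = 0.00463). Tnfrsf19 fell by 2.35 on the log2 scale (limma adjusted p = 0.00982). Wif1, a secreted WNT inhibitor, ran the other way, at 47.5 and 90.2 in the testis, against 5.82 and 15.1 in the ovary (2.35, SE 0.460, limma adjusted p = 0.0115). None (0) of these 3 calls held without ovary replicate 1, and without both second arrays 2 targets were lower and 1 was higher.

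**Figure D2:**
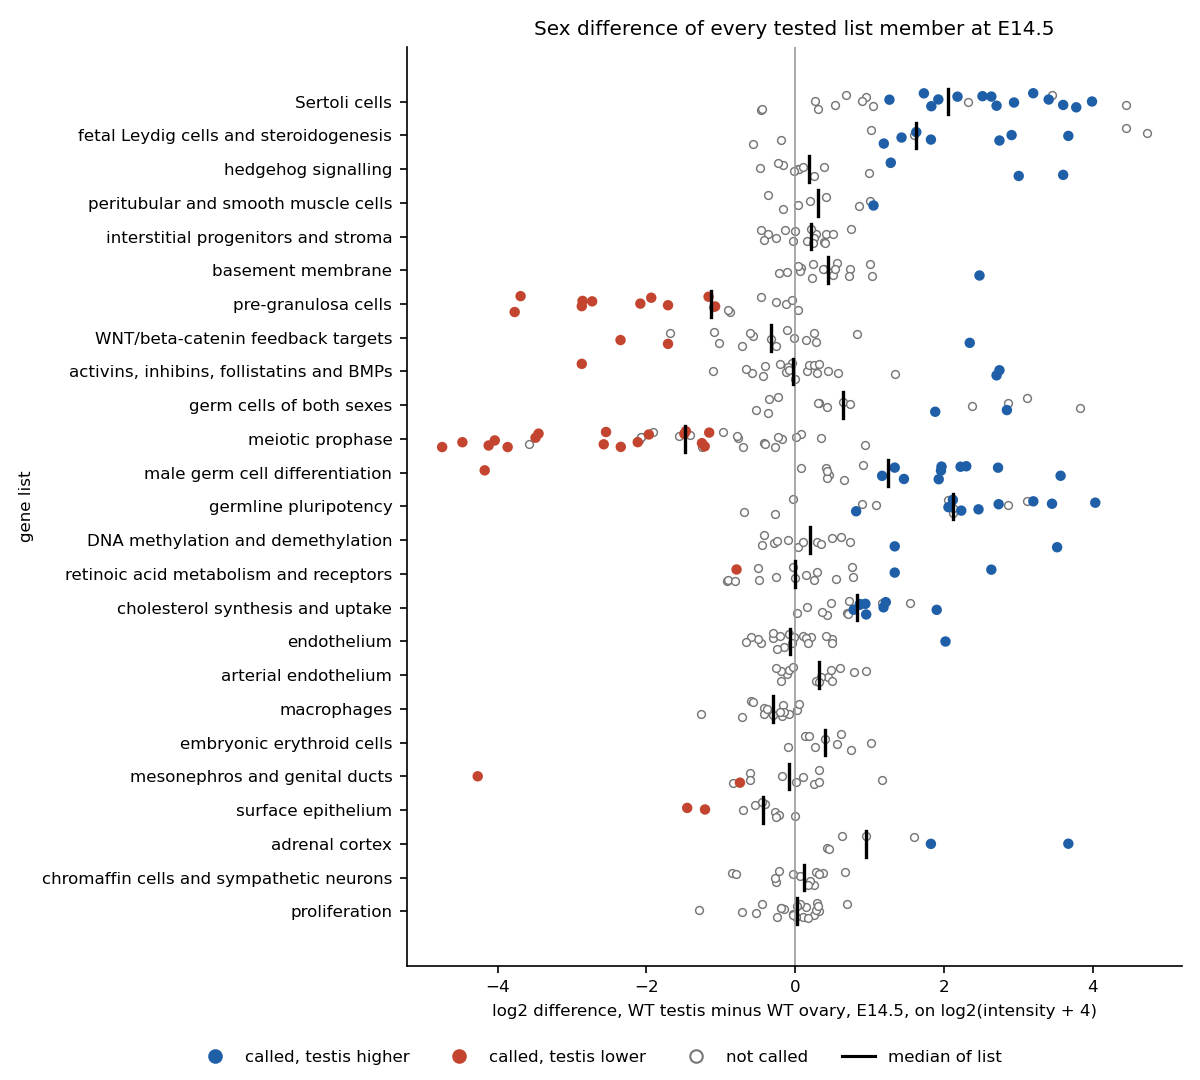
Log2 difference of each tested list member at E14.5, testis minus ovary on log2(intensity + 4); filled points were called (blue higher in the testis, red lower), open points were not, and black bars are list medians. The Sertoli list has 14 filled points, all to the right, and the meiotic prophase list has 17, all to the left.

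Meiotic genes were lower in the testis and held many of the largest falls. Of 38 tested members of the meiotic prophase list 17 were called, all lower in the testis, with a median of -1.48, and 30 had testis arrays wholly below the ovary arrays, as 24.1% of all genes tested did. Stra8, which starts meiosis in answer to retinoic acid, read 5.55 and 104 in the testis arrays, against 828 and 606 in the ovary arrays (-4.47, SE 0.846, limma adjusted p = 0.00962). Testis replicate 2 stood well above testis replicate 1 but below both ovary arrays. Without testis replicate 1 the difference was -2.73 and the call was lost, as it was without ovary replicate 1 (-4.25).

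Recombination genes read low in both testis arrays. Dmc1, the recombinase that pairs homologous strands, read 9.62 and 12.2 in the testis, against 398 and 162 in the ovary (-4.12, SE 0.339, limma adjusted p = 5.71e-05). Meiob, which binds single-stranded DNA at break sites, read 4.62 and 15.5 in the testis, against 429 and 78.6 in the ovary (-3.87, SE 0.582, limma adjusted p = 0.00301). Spo11, which makes the meiotic breaks, read 7.06 and 12.5 in the testis, against 184 and 28.9 in the ovary (-2.54, limma adjusted p = 0.0198). Prdm9, the methyltransferase that places these breaks, read 4.91 and 7.31 in the testis, against 87.5 and 24.4 in the ovary (-2.35, limma adjusted p = 0.00686). Msh4 and Msh5, partners in crossover formation, fell by 1.49 and by 1.16 on the log2 scale.

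Axis, telomere and synapsis genes were lower as well. Terb1, which ties telomeres to the nuclear envelope, had the largest fall of all called genes, with 4.58 and 44.7 in the testis, against 1047 and 282 in the ovary (-4.75, SE 0.707, limma adjusted p = 0.00273). Syce3 of the synaptonemal complex read 6.01 and 13.1 in the testis, against 576 and 75.7 in the ovary (-4.04, SE 0.649, limma adjusted p = 0.0042). Smc1b and Rec8, subunits of meiotic cohesin, fell by 3.45 and by 1.47. Sycp3, another axis protein, read 376 and 1560 in the testis, against 4916 and 2126 in the ovary, and was not called (-2.07, limma adjusted p = 0.0754). Ugt8a, called with this list, encodes a ceramide galactosyltransferase rather than a protein of the meiotic chromosome.

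Other large falls outside the list were M1ap, Spdya and Inca1. M1ap, needed for meiosis in the male mouse, read 5.97 and 15.0 in the testis, against 360 and 226 in the ovary (-4.39, SE 0.332, limma adjusted p = 3.09e-05). Spdya, an activator of CDK2 at meiotic telomeres, read 8.00 and 36.4 in the testis, against 720 and 245 in the ovary (-4.27, SE 0.557, limma adjusted p = 0.00125). Inca1, an inhibitor of CDK2, read 6.52 and 11.97 in the testis, against 690 and 115 in the ovary (-4.47, limma adjusted p = 0.00125). Of the meiotic list, 25 members were called without both second arrays, 22 without ovary replicate 2, 18 without testis replicate 2, and 6 without testis replicate 1 or ovary replicate 1. Dmc1, Terb1, Meiob, Syce1, Syce3 and Rec8 kept their call with any 1 array left out.

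The promoters of these genes were read from the RefSeq windows of 250 bases before to 50 bases after each start on GRCm38.p6. The letters CNCCTCAG, known as a motif bound by STRA8 with its partner MEIOSIN, were searched on both strands. A gene with several windows was counted when any of them held the letters. They were present for 5 of the 14 called meiotic members with a window (35.7%), namely Syce2, Tex12, Msh5, Prdm9 and Ugt8a. For all 31 tested members with a window the share was 22.6%, and over all 27025 genes with a window it was 9.12%. The letters CACGTG, the E-box core that can flank this motif, were in 2 of the 14 called members and in 25.8% of the 31, against 8.09% of all genes. Shown are 4 windows with the motif in capitals, in either orientation, and that of Stra8, which has no match in this window. Prdm9 and Syce2 each have 1 further window, with no match, that is not shown.
Prdm9, chr17:15564305-15564604, minus strand: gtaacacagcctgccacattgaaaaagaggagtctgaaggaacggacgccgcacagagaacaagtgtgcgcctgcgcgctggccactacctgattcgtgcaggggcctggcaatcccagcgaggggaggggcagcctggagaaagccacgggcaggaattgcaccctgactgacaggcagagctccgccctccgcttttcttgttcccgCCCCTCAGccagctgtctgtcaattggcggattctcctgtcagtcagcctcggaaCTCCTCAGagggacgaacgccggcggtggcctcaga
Tex12, chr9:50561219-50561518, minus strand: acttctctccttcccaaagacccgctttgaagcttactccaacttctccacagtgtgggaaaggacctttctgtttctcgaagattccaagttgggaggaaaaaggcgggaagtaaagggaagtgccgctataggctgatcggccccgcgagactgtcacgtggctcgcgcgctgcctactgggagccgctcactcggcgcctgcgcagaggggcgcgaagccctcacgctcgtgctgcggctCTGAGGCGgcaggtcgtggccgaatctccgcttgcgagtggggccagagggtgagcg
Msh5, chr17:35046573-35046872, minus strand: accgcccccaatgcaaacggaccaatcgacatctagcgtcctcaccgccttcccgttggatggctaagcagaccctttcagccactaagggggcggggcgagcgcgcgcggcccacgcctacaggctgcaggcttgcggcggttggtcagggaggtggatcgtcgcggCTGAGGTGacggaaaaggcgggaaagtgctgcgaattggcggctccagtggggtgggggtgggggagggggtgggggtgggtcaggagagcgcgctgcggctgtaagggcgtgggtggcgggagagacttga
Syce2, chr8:84872008-84872307, plus strand: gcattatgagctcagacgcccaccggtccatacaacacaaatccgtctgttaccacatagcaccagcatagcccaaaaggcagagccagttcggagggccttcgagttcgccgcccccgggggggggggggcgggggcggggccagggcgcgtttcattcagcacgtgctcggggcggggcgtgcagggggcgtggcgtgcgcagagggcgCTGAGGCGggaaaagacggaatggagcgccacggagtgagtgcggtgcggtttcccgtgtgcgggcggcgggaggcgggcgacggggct
Stra8, chr6:34920698-34920997, plus strand: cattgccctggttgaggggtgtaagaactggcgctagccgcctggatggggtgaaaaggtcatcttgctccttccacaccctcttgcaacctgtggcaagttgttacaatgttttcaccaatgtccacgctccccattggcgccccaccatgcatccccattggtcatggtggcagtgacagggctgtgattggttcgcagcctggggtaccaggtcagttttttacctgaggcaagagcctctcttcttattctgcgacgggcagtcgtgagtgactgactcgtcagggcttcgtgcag
For the Leydig list, AAGGTCA, known as a motif of the nuclear receptor NR5A1, was in 0 of the 6 tested members with a window, against 5.38% of all genes.

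Genes of male germ cell differentiation were higher in the testis. Of 18 tested members 10 were higher and 1 was lower, with a median of 1.25. Piwil4, the PIWI protein that guides silencing of transposons in prospermatogonia, read 68.6 and 276 in the testis arrays, against 6.61 and 9.67 in the ovary arrays (3.57, SE 0.465, limma adjusted p = 0.00125). Gtsf1, a partner of PIWI proteins, read 205 and 383 in the testis, against 56.6 and 51.1 in the ovary (2.30, SE 0.281, limma adjusted p = 0.000903). For both genes testis replicate 2 was the highest of the 4 arrays. The tudor genes Tdrd1, Tdrd5, Tdrd9 and Tdrd12, which act in the same small-RNA pathway, differed by 1.17 to 2.73.

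Silencing genes and a signal inhibitor were also higher in the testis. Lefty2, an inhibitor of Nodal, read 99.4 and 108 in the testis, against 16 and 22.5 in the ovary (2.22, SE 0.307, limma adjusted p = 0.00156), while Nodal was not called (0.65, limma adjusted p = 0.168). Morc1, an ATPase that silences transposons in male germ cells, read 389 and 753 in the testis, against 15.6 and 111 in the ovary (3.52, SE 0.657, limma adjusted p = 0.00904). Dnmt3l, the cofactor of de novo DNA methylation, read 14.2 and 30.5 in the testis, against 4.21 and 8.00 in the ovary (1.34, limma adjusted p = 0.012). These were the only calls among 14 genes of DNA methylation and demethylation, of which 4 were called higher without both second arrays and 0 without ovary replicate 1 or testis replicate 2. Tex101, a surface protein of germ cells placed in the male list, fell instead, at 14.6 and 77.2 in the testis, against 1212 and 401 in the ovary (-4.17, SE 0.589, limma adjusted p = 0.00178). Higher members of the male list numbered 9 without both second arrays, 10 without ovary replicate 2, 7 without testis replicate 1, 5 without ovary replicate 1 and 4 without testis replicate 2.

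Pluripotency genes of the germ line had a median difference of 2.12, with 9 of 19 members higher in the testis and 0 lower. Sox2 read 362 and 615 in the testis, against 10.3 and 128 in the ovary (3.45, SE 0.708, limma adjusted p = 0.0152). Lin28a, an RNA-binding protein of pluripotent and germ cells, read 224 and 430 in the testis, against 8.51 and 89.7 in the ovary (3.20, limma adjusted p = 0.019). Dppa4 read 1528 and 1907 in the testis, against 15.6 and 555 in the ovary (4.03, SE 1.04, limma adjusted p = 0.0483). Nanog, at 63.0 and 96.1 in the testis, against 6.76 and 28.8 in the ovary, was not called (2.12, limma adjusted p = 0.0747). Pou5f1 was not called either (2.86, limma adjusted p = 0.105). The count was 12 without both second arrays and 14 without ovary replicate 2, but 0 without testis replicate 1, testis replicate 2 or ovary replicate 1.

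General germ cell genes gave 2 calls, both higher in the testis, against 2.22% called higher over all genes tested. Of 15 genes of germ cells of both sexes 2 were higher in the testis, Dnd1 (2.84, limma adjusted p = 0.0165) and Alpl (1.88, limma adjusted p = 0.0157), and the median was 0.640. Ddx4, an RNA helicase of all germ cells, read 987 and 2008 in the testis, against 884 and 921 in the ovary (0.64, limma adjusted p = 0.463). Dazl, an RNA-binding protein of germ cells, read 2550 and 3255 in the testis, against 2107 and 2544 in the ovary (0.32, limma adjusted p = 0.549). The testis arrays of Dazl and Ddx4 lay above the ovary arrays by less than the spread within a sex. The germ cell list gave 6 calls without both second arrays and 7 without ovary replicate 2, and 0 when any of the other 3 arrays was left out.

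The retinoic acid list held 3 calls. Cyp26b1, which degrades retinoic acid, read 227 and 74.9 in the testis, against 7.34 and 37.6 in the ovary (2.64, SE 0.574, limma adjusted p = 0.0207). Aldh1a1, which makes it, read 4298 and 3655 in the testis, against 1101 and 2229 in the ovary (1.34, SE 0.282, limma adjusted p = 0.0176). Rdh10, which acts one step earlier on retinol, read 428 and 345 in the testis, against 689 and 646 in the ovary (-0.79, SE 0.176, limma adjusted p = 0.0239). The median of the 17 tested genes was -0.00800. Without both second arrays Cyp26b1 differed by 4.35 and 2 genes were higher, while Rdh10 was not called (-0.68, limma adjusted p = 0.155). The Cyp26b1 call was lost without ovary replicate 1 (1.70, limma adjusted p = 0.322) and without testis replicate 1 (1.86, limma adjusted p = 0.187). Aldh1a1 and Rdh10 kept their calls without ovary replicate 2 and lost them when any of the other 3 arrays was left out. The higher genes numbered 0 without ovary replicate 1 or testis replicate 1.

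**Figure D3:**
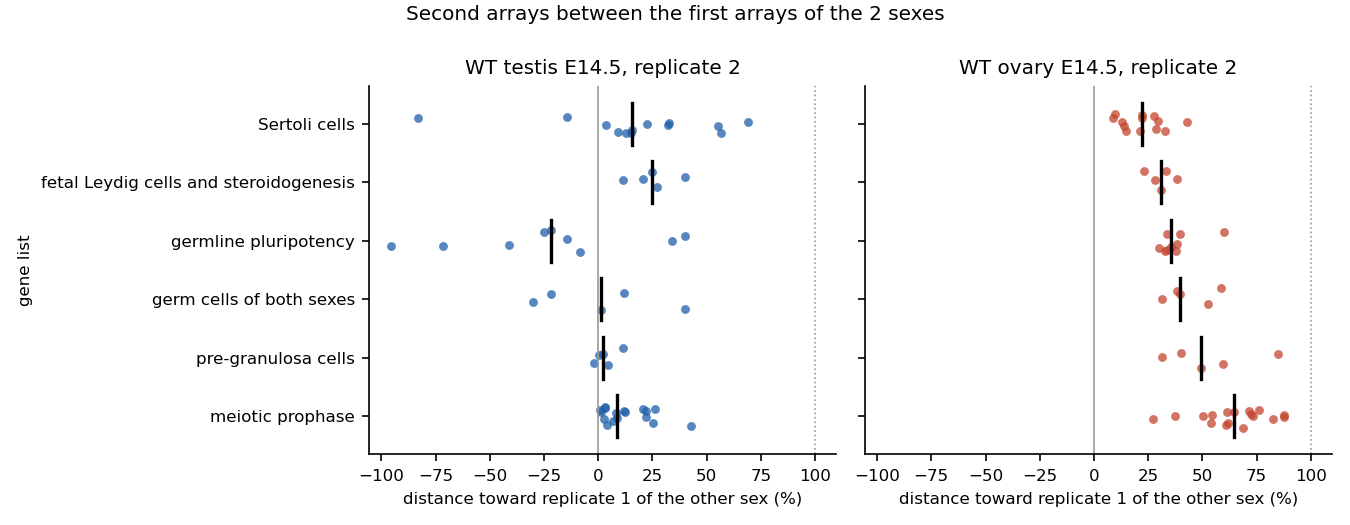
Position of the second testis array (left) and second ovary array (right) of E14.5 for list genes that differed at least 8-fold between the first arrays, as a percentage of the linear distance from the first array of the same sex to that of the other; black bars are medians. The meiotic prophase genes have a median of 8.52% in testis replicate 2 and of 64.8% in ovary replicate 2.

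The second arrays did not shift by the same amount for all genes. For genes at least 8-fold apart between the first arrays, the position of a second array was expressed as the percentage of the linear distance toward the first array of the other sex. Testis replicate 2 lay at a median of 15.3% for the 65 genes higher in the testis and at 3.58% for the 42 genes lower in the testis. For the pluripotency genes it lay at -21.8%, that is, farther from the ovary than testis replicate 1. Ovary replicate 2 lay at a median of 27.5% for the same 65 genes and at 65.3% for the same 42 genes. By list, its medians were 22.0% for 13 Sertoli genes, 30.7% for 5 Leydig genes, 35.6% for 9 pluripotency genes, 49.2% for 5 pre-granulosa genes and 64.8% for 17 meiotic genes. The shares of the other sex read from the sex-linked genes were 22.7% in testis replicate 2 and 19.5% in ovary replicate 2. These genes were chosen for their distance in the first arrays, so the positions are a description. The part of opposite-sex RNA in each gene's difference was not tested.

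Among markers of other tissues, the mesonephros and surface epithelium lists held calls, against 1.47% called lower in the testis over all genes tested. Of 12 mesonephros and duct genes 2 were lower in the testis, and 1 was without both second arrays. Calb1, a calcium-binding protein, read 24.8 and 5.10 in the testis, against 358 and 265 in the ovary (-4.27, SE 0.420, limma adjusted p = 0.00019), and kept its call with any 1 array left out. Pax8, a factor of duct and kidney epithelium, fell by 0.74 on the log2 scale (limma adjusted p = 0.019) and was not called without both second arrays (limma adjusted p = 0.208). The summed intensity of the mesonephros list was 1946 and 1874 in the testis arrays, against 2164 and 2776 in the ovary arrays. Of 10 surface epithelium genes Upk1b and Krt19 fell by 1.45 and by 1.21 on the log2 scale. Krt19 was not called with any 1 of the 4 arrays left out. The count was 1 without both second arrays or without ovary replicate 2, and 0 when any of the other 3 arrays was left out. The summed intensity of that list was 5426 and 5357 in the testis arrays, against 7614 and 7494 in the ovary arrays. None (0) of 15 macrophage, 9 erythroid, 15 arterial, 14 chromaffin or 22 proliferation genes was called. The part of these tissues in the results was not tested.

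The sex difference at E14.5 was then set beside that at E12.5, when the testis cords have just formed. The 2 wild-type testis arrays of E12.5 were almost identical, with an SD of 0.142 of their log2 difference, against 0.393 to 0.589 in the other wild-type groups, so results are also given with them counted as 1 sample. At E12.5, 64 autosomal genes were called (0.539% of those tested), 17 higher and 47 lower in the testis, or 11 with those arrays averaged. The wild-type ovary arrays of E12.5 held shares of 21.8% and 8.06% male RNA, and 1507 genes were called without the first of them and 18 without the second. Of the 263 genes higher in the testis at E14.5, 158 had the same sign at E12.5 and 10 were called there, with a median difference of 1.51 at E14.5 and 0.126 at E12.5. Of the 175 lower genes, 135 had the same sign and 19 were called, with medians of -1.38 and -0.209. No gene (0) was called in opposite directions. The Sertoli list had a median of 2.05 at E14.5 and 1.32 at E12.5. The pre-granulosa medians were -1.14 and -1.28. The meiotic medians were -1.48 at E14.5 and -0.164 at E12.5, and the Leydig medians were 1.63 and 0.125. The 263 and 175 genes were selected by their calls at E14.5, which can enlarge their medians at E14.5. Lists with 0 calls at E12.5 had medians there from -0.594 (WNT targets) to 0.631 (chromaffin cells and sympathetic neurons). The same-sign share and the median over all genes at E12.5 are not given here. Small medians and same-sign counts are therefore not read as a sex difference at E12.5. All these pairs of medians are descriptions.

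A test of the difference between the stages called 19 genes (0.16%), 16 of which were also called at E14.5. The number was 3 with the near-identical arrays averaged, namely Clps, Dmc1 and M1ap. The filter let a gene pass through 1 group of 2 arrays where it is high. With the stricter filter of 8 arrays, 8 of the 19 genes were tested and 0 were called. Dmc1 read 4.77 and 4.55 in the testis at E12.5, against 6.74 and 4.60 in the ovary, and its contrast between the stages was -3.97 (SE 0.479, limma adjusted p = 0.00533). Clps, the pancreatic colipase gene, read 96.7 and 115 in the testis at E14.5, against 4.32 and 10.1 in the ovary, while at E12.5 it read 3.85 and 3.79 in the testis, against 3.78 and 4.52 in the ovary (3.39, SE 0.315, limma adjusted p = 0.000751). M1ap had a contrast of -4.18 (SE 0.470, limma adjusted p = 0.00356). Piwil4 and Gtsf1 also lay near the floor in all E12.5 arrays, with contrasts of 3.85 and 2.41, and were not called with the arrays averaged. The count was 2 without wild-type testis replicate 1 of E12.5, 4 without wild-type ovary replicate 2 of E12.5, 764 without wild-type ovary replicate 1 of E12.5, 3 without ovary replicate 1 of E14.5 and 503 without ovary replicate 2 of E14.5.

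**Figure D4:**
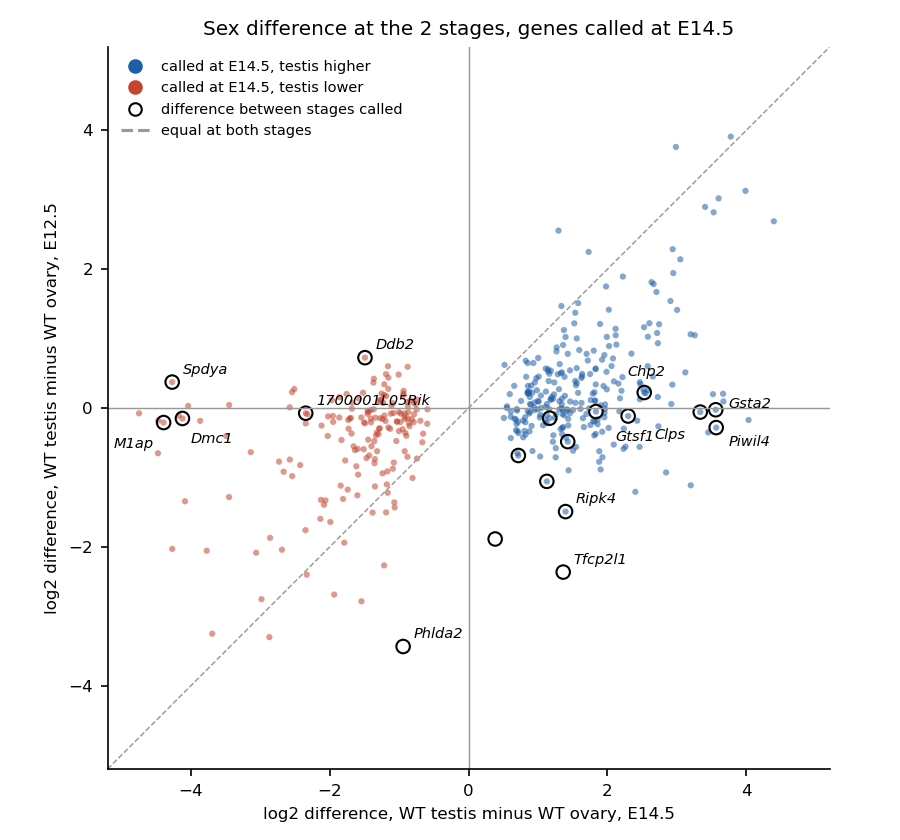
Log2 difference, testis minus ovary, at E14.5 (horizontal) and E12.5 (vertical) for the 438 genes called at E14.5; rings mark the 19 genes called in the test between the stages, 16 of them among the 438, and the dashed line marks equal differences. Dmc1, M1ap and Spdya lie beyond -4 at E14.5 and near 0 at E12.5.

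The sex difference was also measured in Wnt4 knock-out gonads, where testis replicate 2 had an estimated share of 16.4% female RNA. Between knock-out testis and knock-out ovary at E14.5, 610 genes were called (5.14%). Of the 263 genes higher in the wild-type testis, 261 had the same sign and 208 were called in the knock-out. Of the 175 lower genes, 165 had the same sign and 83 were called. The medians over the higher genes were 1.51 in wild type and 1.64 in the knock-out, and those over the lower genes -1.38 and -0.947. These genes were selected by their calls in wild type, which can enlarge the wild-type medians, so the pairs are descriptions. Among the markers, Stra8 read 9.88 and 64.2 in the knock-out testis, against 1149 and 1081 in the knock-out ovary. Foxl2 read 7.76 and 22.2 in the knock-out testis, against 176 and 193 in the knock-out ovary. Of the 18 pre-granulosa genes, 4 were called lower in the knock-out testis and 10 in the wild-type testis, with medians of -0.464 and -1.14. In the knock-out Runx1 was called (-0.936, limma adjusted p = 0.00608) and Irx5 was not (-0.309, limma adjusted p = 0.671). The meiotic list had 18 genes called lower in the knock-out testis and a median of -1.51. Calb1 differed by -0.81 in the knock-out and was not called there (limma adjusted p = 0.359). The limma test of the difference between the genotypes called 0 genes (0.0%), with 274 at an unadjusted p below 0.05 and a lowest adjusted p of 0.135, which does not show that the genotypes were alike.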

How the data were processed

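RNA of 16 gonad samples was measured on Affymetrix Mouse430_2 arrays. The authors deposited intensities that are not logged, made with MAS5 per the submitters' processing notes. The MAS5 version and scaling target are not given in the sources used. Trimmed means of the arrays agreed within 1.06-fold, so the deposited scale was kept. Probe sets were named from the platform annotation of GEO, with symbols updated through RefSeq: of 45101, 34945 carried 1 symbol, 9160 none, 932 more than 1 (left unnamed), and 64 were controls. A probe set had to exceed its array's median in 2 or more arrays, which 25596 did, and the brightest stood for its gene. As a group holds 2 arrays, a gene could pass this filter through the 1 group where it is high. With 8 or more arrays required, 10980 autosomal genes were tested. At E14.5, 329 of them were called, 215 higher and 114 lower in the testis, against 263 and 175 in the main fit. Log2(intensity + 4) of all 16 arrays was fitted in limma 3.58.1 under R 4.3.3, 1 mean for each group, with a variance trend and 8 residual and 5.29 prior degrees of freedom. Figures used Python.

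Members, markers and 25 gene lists (469 genes, 398 of them tested and autosomal) were chosen with earlier results of these data known. Named genes are the markers, Wnt4, the 12 largest called differences each way, the 6 members of each list with the smallest p, and the 6 largest differences each way in the test between stages. Sox9, Amh, Fgf9, Cyp11a1, Cyp17a1 and other list members beyond that rule were chosen after their values were seen. Shares of opposite-sex RNA came from Xist or from Eif2s3y, Kdm5d and Uty. Alternatives covered the pseudocount, filter, normalization, variance model, weights, blocks, probe sets, threshold and left-out arrays. On simulated data for 12332 genes, 57 of 100 genes changed 2-fold and 92 of 100 changed 4-fold were recovered in this comparison, with 9 unchanged genes called. The simulated noise was independent between arrays, had the same SD per gene in all groups and held no opposite-sex RNA. Recovery and false calls in the real arrays may therefore differ. The main fit did not pair samples by replicate number.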

Additional observations from a re-analysis of the deposited data

Results flagged for a closer look

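The contrast between the stages, that is the log2 sex difference at E14.5 minus that at E12.5, passed the limma threshold for 19 autosomal genes. Values are log2 contrasts, and a positive one means that the testis stood higher relative to the ovary at E14.5 than at E12.5. Negative contrasts were found for Spdya (-4.64), M1ap (-4.18), Dmc1 (-3.97), 1700001L05Rik (-2.27) and Ddb2 (-2.22). Germ-line genes of the PIWI pathway had positive contrasts, with 3.85 for Piwil4, 2.41 for Gtsf1 and 1.31 for Tdrd9. The contrast was 3.58 for Gsta2, a glutathione transferase, 3.39 for Clps and 2.31 for Chp2, and all 3 were near the floor in both sexes at E12.5. Galnt5 had a contrast of 1.88, Rrad of 1.91, Slc7a8 of 2.18, Aff3 of 1.40 and Ripk4 of 2.89. Tfcp2l1 (3.73), Phlda2 (2.49) and Slitrk1 (2.27) were not called at E14.5 and were lower in the testis at E12.5. Phlda2, an imprinted gene, read 7.01 and 7.83 in the wild-type testis at E12.5, against 97.7 and 146 in the wild-type ovary. The wild-type testis arrays of E12.5 were almost identical, and with them averaged 3 of the 19 genes were called, Clps, Dmc1 and M1ap. The part of opposite-sex RNA, 21.8% and 8.06% in the wild-type ovary arrays of E12.5, was not tested.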

How the results depend on the processing

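For the E14.5 sex difference, with 438 calls, counts were 319 to 443 under 10 settings, and the replicate number as a block gave 441. Same-numbered arrays of the 2 sexes deviated apart (correlation -0.298). Both second arrays also had an estimated share of opposite-sex RNA by the sex-linked genes, so this correlation cannot decide whether the numbers pair the samples. A crossed block, added after the data were seen, gave 395. The count was 817 with the share of opposite-sex RNA as covariate, 169 at a threshold of 0.01, and 0 with only the 4 arrays fitted, where 1506 genes had an unadjusted p below 0.05, and 83 to 859 with 1 array left out. At E12.5, with 64 calls, it was 11 with the near-identical arrays averaged, 41 with the mean of probe sets, 12 with only its arrays, 636 with the covariate, 23 at 0.01, and 9 to 1507 with 1 array left out. For the contrast between stages, with 19 calls, it was 3 averaged, 12 with the crossed block, 4 with only its arrays, 69 with the covariate, 30 at a pseudocount of 16, 9 after quantile normalization, 0 with the stricter filter (8 of the 19 genes tested), 3 at 0.01, 307 without both second arrays of E14.5, and 2 to 764 with 1 array left out. For the contrast between genotypes, with 0 calls, it was 5 with array weights, 8 with the covariate, 2 at a pseudocount of 16, 11 without both second arrays, and 0 to 15 with 1 array left out. None (0) of the 84 called named genes reversed under any of 19 settings. Many settings could not reverse them, because the testis arrays of every called gene did not overlap its ovary arrays. This holds for left-out arrays, the threshold and the variance model. The cause of these moves was not tested. Genes not called that changed sign were Cdh5 (-0.09142 to 1.087 with 1 array left out), Hemgn (-0.1703 with the covariate), Myl9 (0.1918 with the covariate, 0.07355 without both second arrays) and Tagln (-0.07346 to 0.9036 with 1 array left out). Genes close to the floor of intensity have differences that are understated.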
